A study of Mus musculus with 5 samples.

Results

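The 42 genes described here are listed markers and regulators of blood and lymphatic vessels, namely leukocyte adhesion molecules, vessel surface and junction proteins, coagulation and tone genes, transcription factors, lymphatic markers, and growth factors with their receptors. They were chosen by name, and every probe set annotated with exactly one of these symbols was taken. This gave 71 probe sets out of 45037 that are not array controls, and all 42 genes were measured out of 18193 genes in all. A total of 23 genes have 1 probe set and 19 have between 2 and 4.

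Expression in the mouse esophagus was measured on Affymetrix Mouse Genome 430 2.0 arrays in a transgenic line in which doxycycline switches on the type 2 cytokine IL-13. The Dox group holds 3 arrays from mice given doxycycline in the diet, and the NoDox group holds 2 arrays from mice on the diet without it. All mice were CC10-IL-13 transgenic on the FVB/N background, aged 3 to 4 months, so the NoDox group carries the same transgenes. The CC10 promoter that drives the doxycycline-dependent transactivator is that of airway club cells, not of esophageal or endothelial cells. No samples of doxycycline-fed mice without the transgenes were used here, and an effect of the diet cannot be told apart from one of IL-13. Whether each array is a separate animal is not stated in the labels, so the p-values cover only the array-to-array spread, which may be technical. Each deposited value is a probe set's signal relative to its NoDox mean, so a ratio of 2 means a doubled signal. The ratios carry no detection call, and the number of arrays limits the precision.

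Endothelial cells line every vessel. When tissue is inflamed, the endothelium of small veins displays selectins, on which leukocytes roll, and immunoglobulin-type ligands such as ICAM-1 and VCAM-1, to which leukocyte integrins bind firmly. New vessel growth is directed by a different set of signals, in which VEGF ligands act on the receptors encoded by Kdr, Flt1 and Flt4, and angiopoietins act on the receptor encoded by Tek. IL-4 and IL-13 are known from cultured human endothelial cells to induce P-selectin and VCAM-1.

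In Dox esophagus 4 of the 42 genes rose and 0 fell at an adjusted p under 0.05 in limma (Benjamini-Hochberg adjustment over 18193 genes). Selp rose 2.63-fold, Icam2 2.50-fold and Icam1 2.03-fold, all of them adhesion genes, and the fenestral diaphragm gene Plvap rose 1.71-fold. Over all genes 1.37% rose and 1.23% fell. At an unadjusted p under 0.05, 11 of the 42 genes were above 0 and 4 below, against 1239 and 1954 of all genes. The log2 fold change was above 0 for 30 of the 42 genes and below 0 for 12, while 42% of all genes were above 0 and 58% below. The median log2 fold change of the 42 genes was 0.18, against -0.08 for all genes. The direction of each of the 42 log2 fold changes was the same under quantile normalization and median centring of the arrays, and for 29 it was the same under all 15 alternatives tried. Sele kept its direction under the 14 alternatives it entered, since a level filter left it out of the other one. In 14 of the 42 genes the 3 Dox arrays lay above both NoDox arrays and in 4 they lay below both. For all genes these shares were 13.6% and 22.3%. When all 45037 probe sets were tested singly in limma, 2 of the 71 member probe sets rose, one each of Selp and Icam2, and 0 fell. In that test 0.586% of all probe sets rose and 0.524% fell. Icam1 and Plvap had adjusted p-values of 0.0673 and 0.0753 there. An unadjusted p under 0.05 was found in 20 of the 71, some above 0 and some below. That count was not taken over all probe sets. In the limma fit of genes it held for 3193 of 18193.

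**Figure D1:**
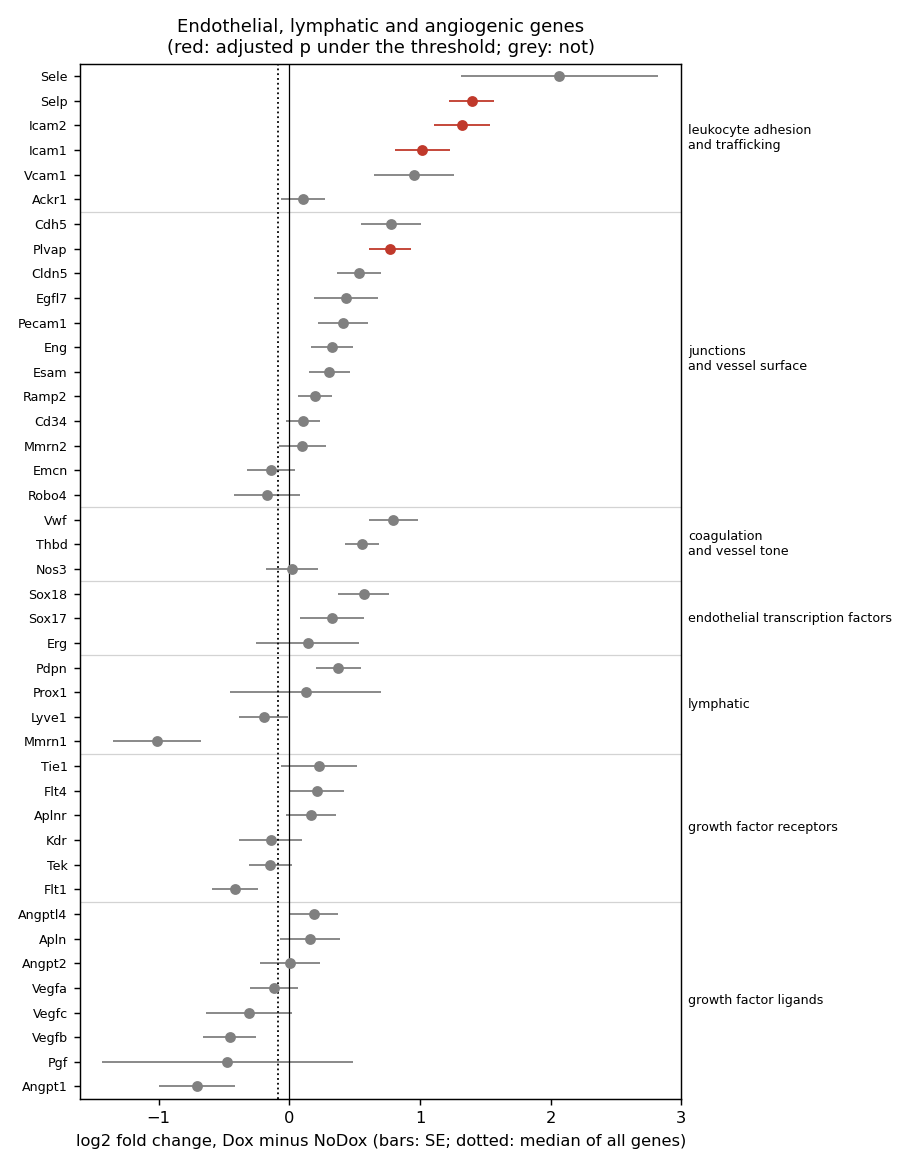
Log2 fold change (Dox minus NoDox, horizontal axis) of the 42 genes, grouped by role and sorted within a role, with the standard error as a bar and the median of all genes (-0.08) as a dotted line. The 4 genes past the threshold (red) lie in the adhesion group and, for Plvap, in the vessel surface group. The 8 growth factor ligands range from -0.71 to 0.19.

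The adhesion and trafficking genes had the highest median of the 7 roles, at a log2 fold change of 1.17, with 6 of 6 genes above 0 and 3 past the threshold. Selp encodes P-selectin, which is stored in endothelial granules and platelets and starts leukocyte rolling. Its ratios were 2.80, 2.58 and 2.48 in the Dox arrays, against 0.902 and 1.10 in the NoDox arrays. All 3 Dox arrays were high and close together, and the groups did not overlap. The log2 fold change was 1.39 ± 0.17 (SE, adjusted p = 0.00388). Icam2 encodes a constitutive ligand of the leukocyte integrin LFA-1. Its ratios were 2.64, 2.46 and 2.38 in the Dox arrays and 1.06 and 0.938 in the NoDox arrays, again with no overlap and little spread (1.32 ± 0.22, SE, adjusted p = 0.0159). Icam1 encodes the inducible ligand of the same integrin and of Mac-1, on endothelium and also on epithelial cells and leukocytes. It was at 1.89, 1.61 and 2.73 in Dox and at 0.964 and 1.04 in NoDox. The groups did not overlap, and Dox array 3 stood highest (1.02 ± 0.21, SE, adjusted p = 0.0395).

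The calls changed with single arrays and with the model of the spread. With 1 array left out, Selp was called in 3 of 5 fits, Icam2 in 2, and Icam1 and Plvap in 1 each. The number of the 42 genes that rose was 2 without Dox array 1, 8 without Dox array 2, 1 without Dox array 3, and 0 without either NoDox array. With no trend of the spread on signal it was also 0, with Selp at an adjusted p of 0.115.

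The remaining adhesion genes did not pass the threshold. Vcam1, whose product binds the integrin VLA-4 of eosinophils and lymphocytes, had ratios of 1.79, 1.33 and 3.06 in Dox and 0.997 and 1.003 in NoDox. Its arrays did not overlap, but Dox array 3 was more than double Dox array 2 (0.95 ± 0.30, SE, adjusted p = 0.149). The other two probe sets of Vcam1 were at 1.09 and 0.38 on the log2 scale. Sele, encoding E-selectin, the second inducible endothelial selectin, had ratios of 4.40, 4.43 and 2.33 in Dox. Its NoDox ratios were 1.53 and 0.475, so the NoDox arrays themselves were far apart (2.07 ± 0.75, SE, adjusted p = 0.197). The Sele signal was dim (percentile 23.6 of all probe sets), and adding the median signal level as an offset reduced its log2 fold change to 0.34. Ackr1, the atypical chemokine receptor of venules, was at 0.990, 1.20 and 1.05 in Dox and 0.938 and 1.06 in NoDox, which overlap. All 3 probe sets of Selp pointed upward, the 2 dimmer ones at 2.21 and 2.51.

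**Figure D2:**
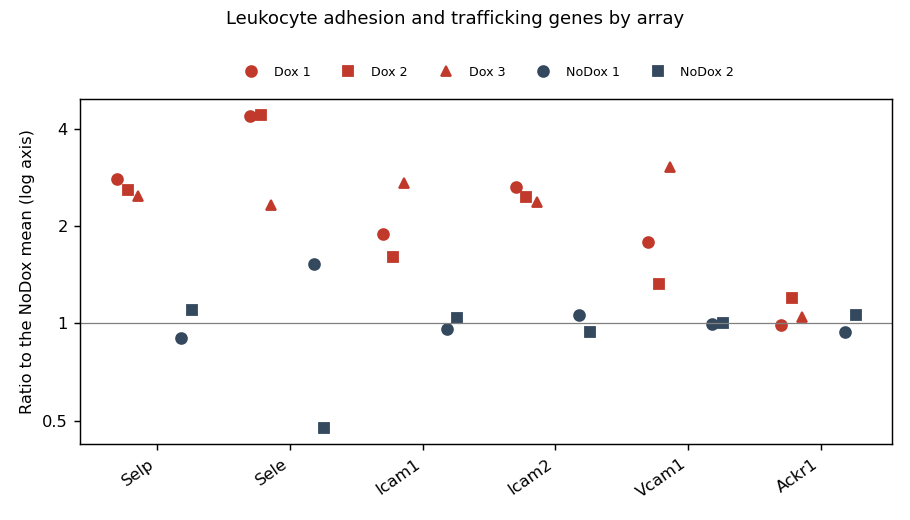
Ratio to the NoDox mean (vertical log axis) of the 6 adhesion and trafficking genes, with one symbol for each of the 3 Dox arrays (red, left) and 2 NoDox arrays (dark, right). Selp and Icam2 have tight Dox values between 2.38 and 2.80, Icam1 and Vcam1 are highest in Dox array 3, and the NoDox values of Sele are 1.53 and 0.475.

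Promoter windows were sought for the 4 genes past the threshold, and the reference used held them for 2, Selp and Icam1. Icam2 and Plvap had no window there and were not searched. Each runs from 250 bases before to 50 bases after the RefSeq transcription start (build GRCm38.p6), 5′ to 3′ on the plus strand, at chr1:164115014-164115313 for Selp and chr9:21015690-21015989 for Icam1. Capitals mark matches to the motifs searched.
Selp: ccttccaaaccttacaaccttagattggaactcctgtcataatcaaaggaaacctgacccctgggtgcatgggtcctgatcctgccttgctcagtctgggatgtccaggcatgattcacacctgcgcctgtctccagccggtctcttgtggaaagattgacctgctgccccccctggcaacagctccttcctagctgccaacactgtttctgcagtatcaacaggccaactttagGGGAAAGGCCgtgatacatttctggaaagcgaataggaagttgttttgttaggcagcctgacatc
Icam1: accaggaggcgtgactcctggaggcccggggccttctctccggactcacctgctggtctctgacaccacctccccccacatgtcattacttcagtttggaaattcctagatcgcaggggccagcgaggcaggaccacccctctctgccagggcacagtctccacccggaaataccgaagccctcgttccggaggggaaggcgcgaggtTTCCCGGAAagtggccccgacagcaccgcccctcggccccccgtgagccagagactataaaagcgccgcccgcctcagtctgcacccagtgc
Both strands were searched for 5 motifs. They were a STAT6-type palindrome (TTC and GAA with 4 free bases between), a pair of NF-kappaB-like patterns (GGG, 3 free bases, TTCC; and GGGA, 4 free bases, CC), AP-1 (TGACTCA), and a general STAT palindrome (TTC and GAA with 3 free bases between), the last added after the sequences were seen. The Selp window holds 1 match, to the second NF-kappaB-like pattern, from 15 to 6 bases before the start. That pattern occurs in 20.7% of all 32851 windows. The Icam1 window holds 1 match, to the general STAT palindrome, from 42 to 34 bases before the start, a pattern in 8.3% of all windows. The STAT6-type palindrome (7.0% of windows), the first NF-kappaB-like pattern (5.6%) and AP-1 (5.2%) have no match in these 2 windows. Neither match overlaps another motif searched. Only exact matches were sought, so a site that departs from the letters of a pattern is not marked. The Icam1 window holds tggaaattcc, which differs from the first NF-kappaB-like pattern in its first base alone.

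Among 12 junction and vessel surface genes 1 rose and 10 had a log2 fold change above 0 (median 0.32). Plvap, the structural protein of fenestral and caveolar diaphragms, had ratios of 1.72, 1.47 and 1.95 in Dox and 0.918 and 1.08 in NoDox. The groups did not overlap, and the log2 fold change was 0.77 ± 0.16 (SE, adjusted p = 0.0426). Cdh5, encoding the adherens junction protein VE-cadherin, was at 1.92, 1.57 and 1.60 in Dox and 1.18 and 0.822 in NoDox (0.78 ± 0.23, SE, adjusted p = 0.120). Its second, dimmer probe set pointed the other way at -0.82. Cldn5, the main claudin of endothelial tight junctions, was at 1.70, 1.32 and 1.34 in Dox and 0.932 and 1.07 in NoDox (adjusted p = 0.138). For both genes the Dox arrays lay above the NoDox arrays without the test being passed. Egfl7, a secreted factor of endothelial cells, was above 0 in all 4 probe sets, from 0.34 to 0.85. Pecam1, the adhesion molecule of endothelial contacts, had ratios of 1.52, 1.03 and 1.49 in Dox and 1.04 and 0.962 in NoDox, so Dox array 2 fell within the NoDox range. The TGF-beta co-receptor gene Eng was at 0.33, Esam at 0.31 and Ramp2, which pairs with the adrenomedullin receptor, at 0.20, with Dox above NoDox in every array. Mmrn2 (0.10), the sialomucin genes Cd34 (0.10) and Emcn (-0.14), and the guidance receptor gene Robo4 (-0.17) had overlapping groups. Mmrn2 was at 1.13, 0.871 and 1.25 in Dox and 1.02 and 0.983 in NoDox, and its 4 probe sets ranged from -0.07 to 0.28.

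Of the 3 coagulation and tone genes 0 passed (2 had an unadjusted p under 0.05), and Vwf and Thbd came close. Vwf, encoding von Willebrand factor, which shares endothelial storage granules with P-selectin, had ratios of 1.85, 1.52 and 1.76 in Dox and 0.809 and 1.19 in NoDox (0.80 ± 0.19, SE, adjusted p = 0.0634). Thbd, encoding the anticoagulant receptor thrombomodulin, was at 1.56, 1.35 and 1.51 in Dox and 1.02 and 0.980 in NoDox (0.56 ± 0.13, SE, adjusted p = 0.0598). Neither gene had overlapping groups. Nos3, the endothelial nitric oxide synthase, was at 0.02. Of the transcription factors, Sox18 was at 0.57 ± 0.20 (SE, adjusted p = 0.176), with 1.70, 1.23 and 1.52 in Dox against 0.875 and 1.13 in NoDox. Sox17 (0.33) and Erg (0.14) overlapped between the groups. Dox array 2 lay between the NoDox arrays for Sox17 and below both for Erg, while the other Dox arrays lay above.

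The lymphatic genes did not move together (median -0.04). Mmrn1, a secreted multimerin of lymphatic endothelium and platelets, had ratios of 0.873, 0.391 and 0.358 in Dox and 1.05 and 0.955 in NoDox. All Dox arrays were below both NoDox arrays, yet Dox array 1 was more than double the other two (-1.01 ± 0.34, SE, adjusted p = 0.163). Without Dox array 1 its log2 fold change was -1.42 with an adjusted p of 0.00759. Its other probe set, at percentile 6.9 of signal, was at 0.09. Lyve1, the hyaluronan receptor of lymphatic endothelium and some macrophages, was at -0.20 and -0.19 in its 2 probe sets. Pdpn, encoding podoplanin of lymphatic endothelium, fibroblasts and basal epithelium, was at 0.37. Prox1, the transcription factor that sets lymphatic identity, was dim in all 3 probe sets, and these ranged from -1.27 to 0.12. The brightest was at 1.23, 0.952 and 1.05 in Dox and 0.817 and 1.18 in NoDox. Among 13 measured further lymphatic and venule genes 0 passed the threshold, and 0 had an unadjusted p under 0.05. Those of smallest p were the sulfotransferase gene Chst4 (0.90) and the integrin gene Itga9 (-0.28). In the same list Glycam1, dim at percentile 21 of signal, was at 110.5 in Dox array 3 alone. It was at 0.392 and 0.626 in the other Dox arrays and 1.19 and 0.81 in NoDox.

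Of 6 growth factor receptors 0 passed the threshold. Flt1, encoding VEGF receptor 1, which also exists as a soluble VEGF trap, was the lowest of them. Its ratios were 0.640, 0.827 and 0.795 in Dox and 0.956 and 1.04 in NoDox, with no overlap (-0.42 ± 0.17, SE, adjusted p = 0.256). All 4 Flt1 probe sets were below 0, the lowest at -0.99. In 3 of these probe sets the Dox arrays lay below both NoDox arrays. The other receptors overlapped between the groups. Kdr, the main VEGF signalling receptor, was at -0.14, Tek at -0.15 and Tie1 at 0.23. The lymphatic VEGF receptor gene Flt4 was at 0.21 and the apelin receptor gene Aplnr at 0.17. Aplnr was at 1.19, 0.863 and 1.38 in Dox and 0.988 and 1.01 in NoDox, and its second probe set was at -0.12.

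The 8 ligand genes had the lowest median of the 7 roles (-0.21), with 5 below 0, and 0 passed the threshold (2 had an unadjusted p under 0.05). Angpt1, the Tie2 agonist made by mural cells, had ratios of 0.860, 0.557 and 0.472 in Dox and 1.12 and 0.883 in NoDox (-0.71 ± 0.29, SE, adjusted p = 0.255). Vegfb was at 0.644, 0.746 and 0.750 in Dox and 0.788 and 1.21 in NoDox (-0.46 ± 0.20, SE, adjusted p = 0.282). In both genes the Dox arrays lay below the NoDox arrays. Vegfa, the principal angiogenic ligand, was at 0.875, 0.773 and 1.15 in Dox and 1.07 and 0.933 in NoDox, which overlap. Its second probe set was at -0.58. Vegfc, the lymphatic growth factor, was below 0 in all 3 probe sets, from -0.31 to -0.06. Pgf was dim and scattered, with Dox ratios between 0.252 and 2.24. The remaining ligand genes were at 0.01 for Angpt2, 0.16 for Apln and 0.19 for Angptl4.

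**Figure D3:**
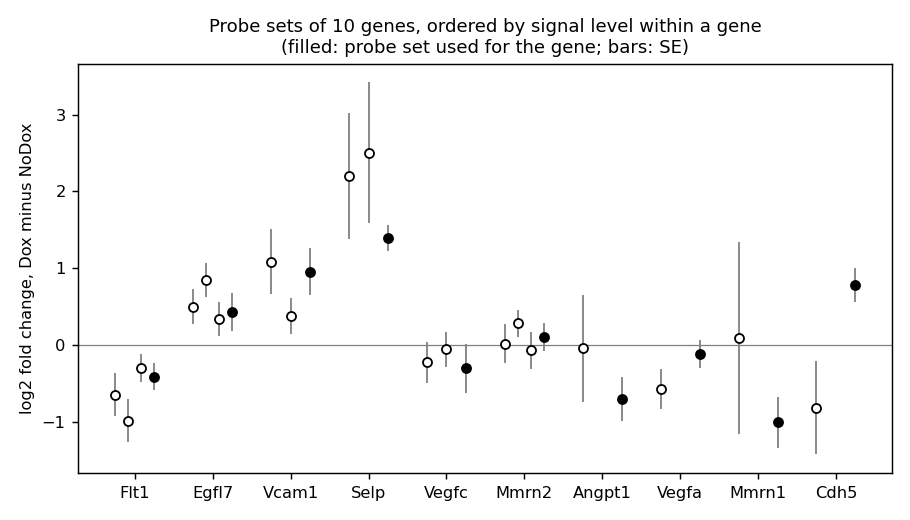
Log2 fold change (Dox minus NoDox, vertical axis) of every probe set of 10 genes with more than 1 probe set, ordered by signal level within a gene, with the standard error as a bar and the probe set used for the gene filled. Flt1 lies below 0 in all 4 probe sets, Egfl7 and Selp lie above 0 in all, and Cdh5 and Mmrn1 have probe sets of opposite sign. Over the 19 genes with more than 1 probe set, 14 had one sign and 5 had mixed signs.

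In bulk tissue, fewer or more endothelial cells and less or more RNA per cell cannot be told apart. The 8 endothelial markers Pecam1, Cdh5, Kdr, Tie1, Tek, Cldn5, Emcn and Egfl7 had a median ratio of 1.33, 1.03 and 1.30 in Dox arrays 1, 2 and 3, and of 1.02 and 0.978 in the NoDox arrays. Dox array 2 was thus near the NoDox level, and Dox arrays 1 and 3 were above it. All 8 had a signal above the median probe set (percentile 55.1 or more). Their summed signal, relative to the NoDox mean, was 0.972 to 1.39 in Dox and 0.994 to 1.01 in NoDox. Divided by the marker median of the same array, Selp was at 2.11, 2.50 and 1.91 in Dox and 0.883 and 1.12 in NoDox. Icam2 on this scale was at 1.99, 2.39 and 1.83 in Dox and 1.04 and 0.960 in NoDox. Icam1 was at 1.43, 1.56 and 2.10 in Dox and 0.942 and 1.06 in NoDox. Plvap was at 1.29, 1.42 and 1.5 in Dox and 0.898 and 1.11 in NoDox. Each of these 4 genes kept its Dox arrays above both NoDox arrays after this division, in which the markers share the arrays with the genes. The genes were picked for having passed the threshold, and the divisor was at most 1.33 in Dox, so this outcome was likely beforehand. Whether their rise exceeded a rise in endothelial cells was not tested.

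Other cell types moved in the same arrays. Of 13 leukocyte markers 7 rose, and the 6 of smallest p were Itgb2 (1.98 ± 0.13), Cd68 (1.54 ± 0.15), Tyrobp (1.42 ± 0.18), Laptm5 (1.44 ± 0.23), Csf1r (0.80 ± 0.13) and Cd53 (1.44 ± 0.26, log2 fold change ± SE). The median ratio of this list was 2.08, 1.89 and 3.43 in Dox and 1.04 and 0.965 in NoDox, and its summed signal 1.95 to 3.25 in Dox and 0.992 to 1.01 in NoDox. Dox array 3, where Icam1 and Vcam1 were highest, was also highest for leukocyte markers. Within that list the B cell gene Cd79a was at 16.1 in Dox array 3, the array in which Glycam1 was high. It was at 0.329 and 1.30 in Dox arrays 1 and 2 and at 1.55 and 0.447 in NoDox. The T cell gene Cd3e was not highest there (1.13, 1.69 and 1.30 in Dox arrays 1, 2 and 3). Whether lymphoid tissue entered that array was not tested. Of 10 measured lung markers 6 rose, although the labelled tissue is esophagus. They were the alveolar genes Sftpc (2.18 ± 0.25), Sftpa1 (2.99 ± 0.38), Sftpd (2.71 ± 0.37), Napsa (2.55 ± 0.36), Ager (2.77 ± 0.43) and Slc34a2 (1.91 ± 0.32, log2 fold change ± SE). The surfactant gene Sftpb (0.94, adjusted p = 0.063) and the club cell genes of the list did not pass. Cyp2f2 was at 0.406, 0.839 and 0.527 in Dox and 0.952 and 1.05 in NoDox (-0.82). Scgb1a1 was at 0.79, with 1.37, 1.46 and 2.56 in Dox above both NoDox arrays. Scgb3a2 was at 0.38 with overlapping groups. The median ratio of the lung list was 4.24, 2.73 and 5.95 in Dox and 1.03 and 0.969 in NoDox, and its summed signal 1.61 to 3.33 in Dox and 0.996 to 1.004 in NoDox. The lowest signal in the lung list was at percentile 67.9, and in the leukocyte list at 35.4. Levels of 7 lung and 9 leukocyte genes entered these sums at a lower bound. Dox array 2 was lowest in the lung list, as in the endothelial markers and the leukocyte list. Dox array 3 was highest in the lung list, as in the leukocyte list. Of the 4 genes past the threshold, Icam1 (1.61) and Plvap (1.47) were also lowest in Dox array 2. Selp and Icam2 were at 2.58 and 2.46 in Dox array 2 and lowest in Dox array 3 (2.48 and 2.38). The part of leukocytes and of lung tissue in the endothelial values was not tested.

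Platelets also carry P-selectin, von Willebrand factor and multimerin 1. Of 8 measured platelet markers 0 passed the threshold (1 had an unadjusted p under 0.05), with a median ratio of 0.962, 1.53 and 0.850 in Dox and 0.893 and 1.11 in NoDox. In this list 6 genes were above 0 and 2 below, and the median log2 fold change was 0.07. The 2 of smallest p were the granule chemokine gene Pf4 at -0.55, with all Dox arrays below NoDox, and the integrin gene Itgb3 at 0.68, with overlapping groups. The summed signal of the list was 0.679 to 1.19 in Dox and 0.844 to 1.16 in NoDox. Red cell markers (3 measured) and pericyte markers (10 measured) had 0 genes past the threshold, with 0 and 3 at an unadjusted p under 0.05. The red cell genes of smallest p were Hba-a1 (1.29) and Alas2 (-0.31), and the pericyte genes Kcnj8 (-0.70) and Pdgfrb (0.45). The pericyte list was between 0.923 and 1.001 in its Dox medians and 0.983 and 1.02 in NoDox. Squamous epithelial, fibroblast and adipocyte markers (9, 7 and 6 measured) also had 0 past the threshold, with list medians of -0.20, -0.12 and -0.50 (5, 1 and 3 at an unadjusted p under 0.05). Their genes of smallest p were Tgm3 (-0.76) and Krt14 (0.48), Col1a1 (-0.51) and Lum (-0.62), and Lep (-3.91) and Lpl (-0.61). The skeletal muscle markers, present at high signal in esophagus (median percentile 94.8), had 2 of 10 lower, Myh7 (-4.04 ± 0.26) and Myh4 (-3.06 ± 0.29, SE), and a list median of -0.20.

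**Figure D4:**
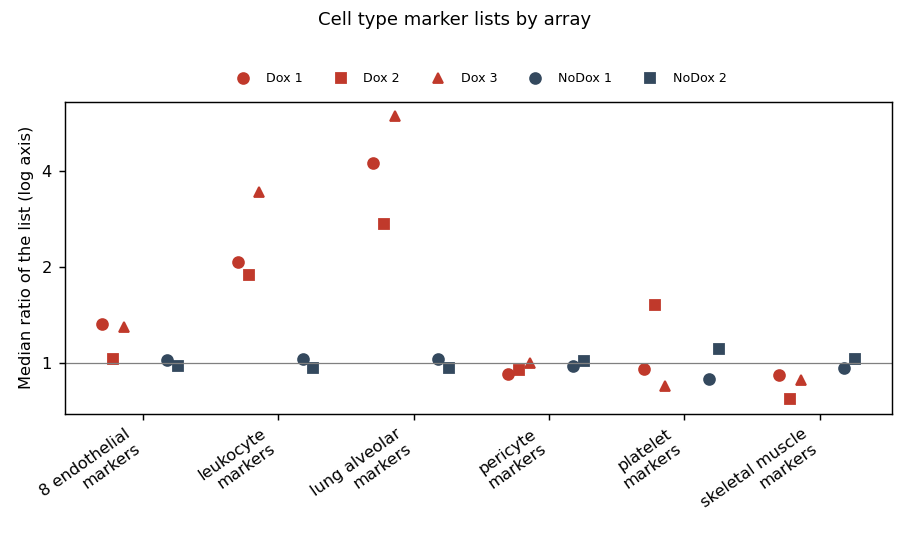
Median ratio to the NoDox mean (vertical log axis) of 6 marker lists, with one symbol for each of the 3 Dox arrays (red, left) and 2 NoDox arrays (dark, right). Leukocyte and lung markers are above the NoDox arrays in all 3 Dox arrays, and endothelial markers are at 1.33 and 1.30 in Dox arrays 1 and 3 but 1.03 in Dox array 2.

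The leukocyte counterparts of the adhesion molecules were higher in Dox for 3 of 11 measured genes. Itgb2, the beta chain shared by LFA-1 and Mac-1, which bind ICAM-1, had ratios of 4.06, 3.61 and 4.16 in Dox and 1.02 and 0.981 in NoDox (adjusted p = 0.000143). Selplg, encoding the P-selectin ligand PSGL-1, was at 2.27, 2.75 and 3.13 in Dox and 1.08 and 0.922 in NoDox (1.43 ± 0.21, SE, adjusted p = 0.00991). Itgax, encoding the CD11c chain that pairs with the product of Itgb2, rose by 2.03 ± 0.36 (SE, adjusted p = 0.0226). The list median was 0.86. Itgb2 is also one of the leukocyte markers above, so it counts in both lists. Itgal and Itgam, the alpha chains of LFA-1 and Mac-1, were at 0.86 and 0.99. Neither passed (adjusted p = 0.335 and 0.287), and the groups overlapped for Itgam. Itga4, a chain of the VCAM-1 receptor VLA-4, was at 0.44 and its partner Itgb1, which most cells express, at -0.66, neither past the threshold.

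Among 28 further endothelial genes 0 passed the threshold (4 had an unadjusted p under 0.05), with 20 above 0 and a median of 0.20. The flow-responsive transcription factor Klf2 had the smallest p of them, at 1.52, 1.45 and 1.57 in Dox and 1.06 and 0.943 in NoDox (0.60 ± 0.13, SE), with an adjusted p just above the threshold of 0.05. The C-type lectin gene Cd93 followed at 0.62. Of 28 further angiogenic signalling genes 1 fell and 0 rose (5 above 0 and 2 below at an unadjusted p under 0.05), with a median of 0.11. It was Bmpr2, the type 2 receptor of bone morphogenetic proteins, at 0.690, 0.519 and 0.593 in Dox and 0.969 and 1.03 in NoDox (-0.74 ± 0.15, SE, adjusted p = 0.0364). The arterial ligand gene Efnb2 was at 0.71 (adjusted p = 0.0702).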

How the data were processed

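RNA of 5 esophagus samples was measured on arrays, 3 Dox and 2 NoDox, as their titles give them. Signals, per the labels, came from Microarray Suite 5.0 and were normalized in GeneSpring 7.3.1 to unstimulated controls. The deposited values are a linear ratio made by the authors. In 45099 of 45101 probe sets the NoDox values sum to 2 within 0.0001, so the reference is the NoDox mean. The genome build is not given in the sources used here.

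The ratios hold no signal level, which was recovered from them. The recovery took signals to be whole steps times one factor per array, a form that the labels do not describe. The factors found were 0.944, 0.905 and 0.948 for Dox 1 to 3 and 1.01 for NoDox 2, relative to NoDox 1. Whole steps up to 50000 that give all 5 ratios within a relative tolerance of 3e-07 were found for 40023 probe sets (88.7%). Others were given a lower bound. A recovered level can be a whole fraction of the true one, where the steps share a divisor. Genes were named from GEO's platform annotation (34945 probe sets with 1 symbol, 932 with several, 9160 with none, 64 controls), and the probe set of highest mean level stood for a gene. Probe set types that can hybridise with several transcripts were kept.

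The log2 of each ratio was fitted in limma 3.58.1 under R 4.3.3 (lmFit and eBayes with a trend on the mean log2 signal, two-sided, Benjamini-Hochberg over 18193 genes, threshold 0.05), with 3 residual and 6.09 prior degrees of freedom. The same was done over 45037 probe sets. No offset or filter was used. The recovery and the fit were tested on simulated data. Of the simulated levels that were recovered 96.29% were right. The fit called 99 of 200 genes changed 2-fold and 137 of 200 changed 4-fold, with 8 and 14 unchanged genes called. A gene that did not pass may thus still have changed. Members, roles and the 13 gene lists were chosen with earlier results of these data known, so lists are described by counts and medians. All 42 members are named, and of each other list up to 6 genes past the threshold by smallest p, or the 2 of smallest p where none passed. Itga4, Itgb1, Itgal, Itgam, Efnb2, Glycam1, Cd79a, Cd3e, Sftpb and the club cell genes were named outside this rule, with their values already seen. The labels give no batch. Python 3.11.15, numpy 2.4.6, pandas 2.3.3, numba 0.67.0 and matplotlib 3.10.9 were used. Alternatives were tried for scaling, offset, level filter, variance model, probe sets, array weights, replicate numbers and single arrays.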

Additional observations from a re-analysis of the deposited data

How the results depend on the processing

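The log2 fold changes of Selp, Icam2, Icam1 and Plvap stayed above 0 under all 15 alternatives, but each lost its call under some. Of the 42 genes 4 rose as reported. Their number was 0 with quantile normalization, with a trend on the mean log2 ratio and with no trend (9, 10 and 9 of them at an unadjusted p under 0.05 in limma), 2 with the median level as an offset, 2 with the mean of a gene's probe sets, 7 with array weights, and 1 with the trend on the NoDox level, an alternative chosen after seeing the data. It was 0 to 8 with 1 array left out. The number that fell was 0, and 0 to 1 with 1 array left out (Mmrn1 without Dox array 1). Member probe sets that rose numbered 2, and 0 with quantile normalization, the mean log2 ratio trend and no trend, 1 with the offset, 4 with array weights, 1 with the NoDox level trend and 0 to 5 with 1 array left out. Those that fell numbered 0, and 0 to 1 with 1 array left out. Over all genes 249 rose and 224 fell. Quantile normalization gave 54 and 12, the trend on the mean log2 ratio 0 and 0 (2386 genes at an unadjusted p under 0.05), no trend 6 and 0 (2434 at an unadjusted p under 0.05), and array weights 456 and 527. The offset gave 158 risen genes and the NoDox level trend 134. With 1 array left out the counts were 41 to 379 risen and 9 to 505 fallen. The cause of these shifts was not tested. With the title's replicate number as a replicate block, 495 genes fell and the same 4 members rose with Vwf added. Dox array 3 is alone in its block there and adds nothing to the fold changes. These equal the values without that array (Selp 1.43 and Icam1 0.80 on the log2 scale). Without Dox array 3 and with no block, only Selp was called. Same-numbered arrays deviated from their group means with correlations of 0.031 and 0.051 over genes. The deviations of the 2 NoDox arrays mirror each other, so these values cannot settle whether the numbers mark pairs. The median of the members stayed within 0.115 of 0.18, the SD of that median over the Dox arrays, under every alternative. Sele, Prox1 and Pgf are dim, and no detection call is given.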
